A study of Mus musculus with 23 samples.

Results

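Lymphoid follicle chemokines and B cell genes, 8 of the 754 genes of a NanoString nCounter mouse myeloid panel, were followed in the left lungs of 23 mice. They were taken by name: the chemokines Cxcl13 and Ccl19, the receptors Cxcr5 and Il21r, the B cell surface genes Ms4a1 and Fcer2a, the kinase gene Btk and the transcription factor gene Irf4. The panel counts colour-coded probes on RNA molecules without amplification. Dust lungs came from mice given 14 instillations of organic dust extract, and saline lungs from mice given as many of the PBS vehicle. Every lung had undergone bronchoalveolar lavage before collection. The groups were 6 Fat-1 dust lungs (3 female, 3 male), 7 WT dust lungs (4 female, 3 male), 5 Fat-1 saline lungs (2 female, 3 male) and 5 WT saline lungs (2 female, 3 male). Fat-1 mice carry a Caenorhabditis elegans desaturase gene whose product makes omega-3 out of omega-6 fatty acids, which WT mice do not have. No source used here states the transgene's promoter, the mice's ages or their background strain.

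In lymphoid tissue, CXCL13 made by stromal cells draws B cells and follicular helper T cells that carry its receptor CXCR5 into follicles. CCL19 draws T cells and mature dendritic cells through CCR7 into the T cell zone. Interleukin 21 from helper T cells acts on B cells through IL21R, and BTK carries the signal of the B cell receptor. Lymphoid clusters with such follicles can form in chronically inflamed lungs. CXCL13, BTK, IRF4 and IL21R are also made by myeloid or T cells, so these genes do not mark B cells alone.

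The values are normalized counts, that is, probe counts multiplied by a factor for each lung (0.682 to 4.21), and with counts under 20 set to 20. In the 5 lungs with a factor under 1, scaled values under 20 were at 20 too, so that with the factor of 0.682 the lowest count seen was 30. A value of 20 is therefore a floor, and what it hides depends on the factor. Recovered counts ran from 110453 to 812429 per lung. The lungs carry 2 extraction days in their codes, with 8 dust and 4 saline lungs on day 1 and 5 dust and 6 saline lungs on day 2. The labels conflicted for 4 lungs, which were grouped by extract code. In 2 lungs, Fat-1 male dust lung 1 of day 2 and WT male saline lung 1 of day 2, the file carries a saturation message. Only 1 of 9 listed B cell markers, Ms4a1, and none of 5 plasma cell markers are on the panel, so B cell content rests on 1 gene. In whole tissue, fewer cells of a type and less RNA per cell cannot be told apart.

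The first comparison asked which of the genes differed between dust and saline lungs. Of the 8 genes, 6 rose with dust and 0 fell, in limma's test at an adjusted p under 0.05. Of all 711 genes tested, 43.3% rose and 9.99% fell. The median log2 difference was 1.03 over the 8 genes and 0.26 over all genes tested. The 6 were Cxcl13, Ccl19, Il21r, Btk, Fcer2a and Irf4, and the exceptions were Cxcr5 and Ms4a1. For Fcer2a and Irf4 the call rests on values at the floor, as given with those genes.

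**Figure D1:**
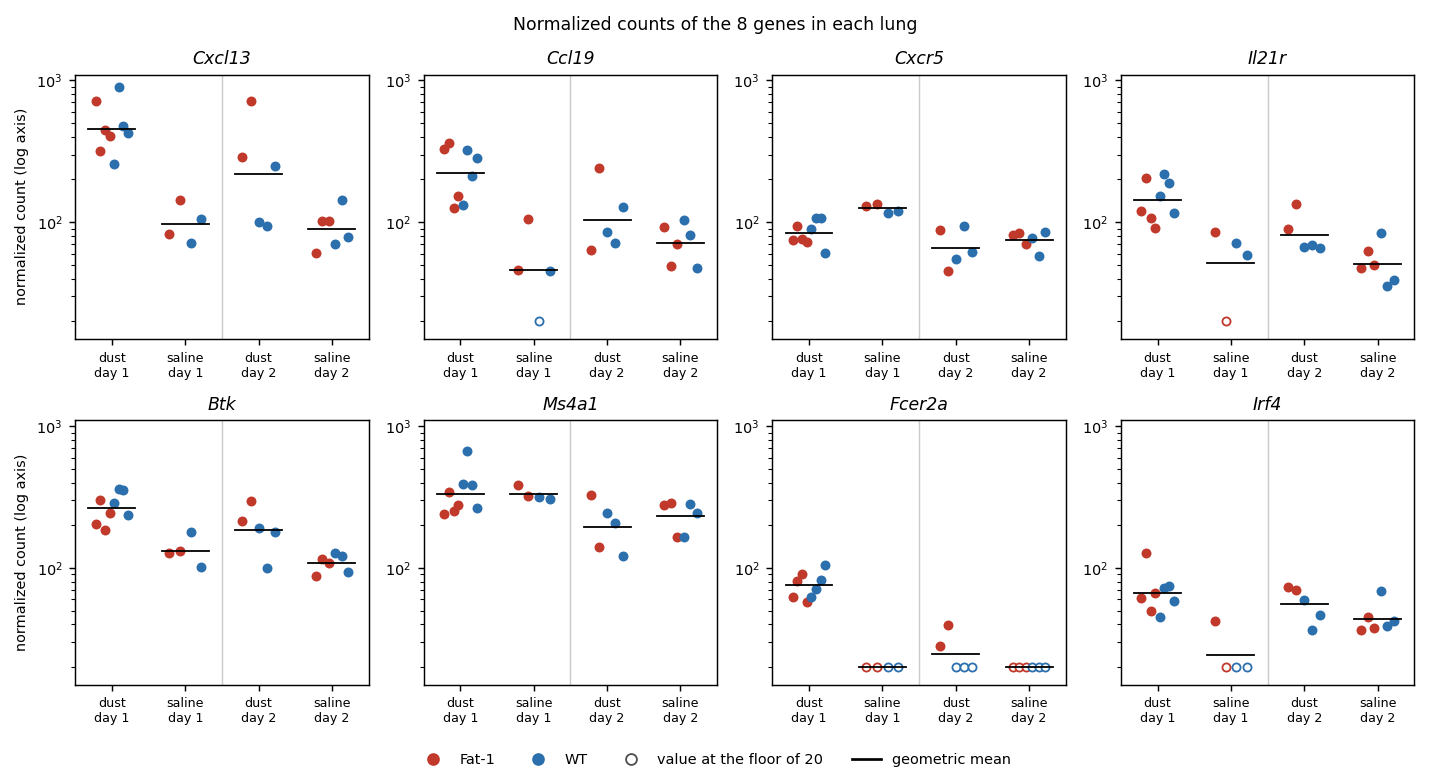
Normalized counts (log axis) of the 8 genes in each lung, by exposure and extraction day, with Fat-1 lungs in red, WT lungs in blue, open circles at the floor of 20 and bars at geometric means. On day 1 all 8 dust lungs lie above all 4 saline lungs for Cxcl13, Ccl19, Il21r and Btk, and below them for Cxcr5; for Fcer2a and Irf4 the saline values at the floor hide levels of up to 84.26.

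Cxcl13, the B cell chemokine, had the largest log2 difference among the 8 genes. It ranged from 93.18 to 894.45 normalized counts in the 13 dust lungs with a median of 404.86, against 60.42 to 143.93 in the 10 saline lungs with a median of 92.2. Of the dust lungs, 11 of 13 were above the highest saline lung, and the other two were WT female lungs of day 2. The means were 414 ± 241 in dust lungs (SD, n = 13) and 95.8 ± 29.3 in saline lungs (SD, n = 10). The log2 difference was 2.01 (SE 0.32, adjusted p = 7.90e-05), a 4.02-fold rise.

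Ccl19, the chemokine of T cells and mature dendritic cells, ranged from 63.94 to 359.29 normalized counts in dust lungs with a median of 152.85, against 20 to 105.33 in saline lungs with a median of 59.6. Of the 13 dust lungs, 10 were above the highest saline lung. The log2 difference was 1.51 (SE 0.36, adjusted p = 0.00185). The annotation lists 4 further genes or pseudogenes under the Ccl19 name on chromosome 4, so its probe may count close copies too.

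The promoters of both chemokine genes are shown because both genes rose and both windows hold the same letter pattern. The pattern, GGGANNTTTG, is the form of NF-kappa-B site described in the mouse Cxcl13 promoter, and it was sought on both strands. The windows run from 250 bases before to 50 bases after the annotated start, from RefSeq on GRCm38.p6, and capitals mark the matches. Cxcl13 is on the plus strand at chr5:95956689-95956988 and Ccl19 on the minus strand at chr4:42756316-42756615.
Cxcl13: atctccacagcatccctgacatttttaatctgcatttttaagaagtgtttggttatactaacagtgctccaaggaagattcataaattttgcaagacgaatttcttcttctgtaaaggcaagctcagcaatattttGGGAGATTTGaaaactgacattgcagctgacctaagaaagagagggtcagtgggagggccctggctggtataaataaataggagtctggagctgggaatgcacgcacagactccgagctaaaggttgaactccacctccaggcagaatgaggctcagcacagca
Ccl19: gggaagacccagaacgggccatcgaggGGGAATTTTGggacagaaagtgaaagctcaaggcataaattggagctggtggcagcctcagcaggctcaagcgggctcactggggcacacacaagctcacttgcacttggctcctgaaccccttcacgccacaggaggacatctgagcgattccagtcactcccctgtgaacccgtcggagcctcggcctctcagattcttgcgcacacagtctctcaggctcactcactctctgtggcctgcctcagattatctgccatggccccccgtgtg
The match began at base -114 in Cxcl13 and base -223 in Ccl19, counted from the start, and read GGGAGATTTG and GGGAATTTTG on the strand of the gene. Of 32851 promoter windows of this length, 440 (1.34%) hold the pattern. Since the pattern was described in the Cxcl13 promoter, the match there was known in advance. The Ccl19 match was found by searching the windows of all 6 genes with an entry. This share for a single window therefore overstates how rare such a find is, and it is given as background only. Of the 8 genes, 6 had an entry in this table. The other 4 with an entry (Btk, Fcer2a, Il21r and Irf4) hold no such match in these windows. A second NF-kappa-B pattern, GGGANNTTCC, was sought too. It is in 482 of all windows (1.47%) and in no window of the 6 genes. A match describes the letters and was not tested as a binding site.

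Il21r, the receptor of interleukin 21, ranged from 65.32 to 219.92 normalized counts in dust lungs with a median of 116.36, against 20 to 84.76 in saline lungs with a median of 54.4. The log2 difference was 1.09 (SE 0.26, adjusted p = 0.00209), and 10 of 13 dust lungs were above the highest saline lung. Cxcr5, the receptor of CXCL13, had 45.47 to 107.31 normalized counts in dust lungs with a median of 76.56, against 57.98 to 134.82 in saline lungs with a median of 84.1. No dust lung was above the highest saline lung. The log2 difference of Cxcr5 was -0.29 (SE 0.18, 95% interval -0.67 to 0.08, adjusted p = 0.179). With the extraction day as a block it was -0.40 (adjusted p = 0.0196), with the cartridge as a block -0.32 (adjusted p = 0.0464), and with median centring -0.68 (adjusted p = 0.00608).

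Btk, the kinase of B cell and some myeloid receptors, ranged from 100.49 to 357.6 normalized counts in dust lungs with a median of 235.15, against 87.45 to 178.25 in saline lungs with a median of 119. In 12 of 13 dust lungs it was above the highest saline lung. The log2 difference was 0.97 (SE 0.19, adjusted p = 4.73e-04). Ms4a1, which encodes the B cell surface protein CD20, had 121.32 to 672.69 normalized counts in dust lungs with a median of 264.24, against 166.02 to 387.22 in saline lungs with a median of 284. The groups overlapped, with 2 dust lungs above and 2 below all saline lungs. The log2 difference of Ms4a1 was -0.01 (SE 0.23, adjusted p = 0.975), with a 95% interval of -0.50 to 0.48.

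Fcer2a, which encodes the low-affinity IgE receptor CD23 of B cells, was at the floor in 10 of 10 saline lungs and in 3 of 13 dust lungs. The other 10 dust lungs lay between 27.9 and 105.45 normalized counts. The fitted log2 difference was 1.29 (SE 0.29, adjusted p = 0.00144). With each floored value set to the highest value it could hide, the difference was 0.59 (adjusted p = 0.110). Irf4, a transcription factor of activated B cells, T cells and macrophages, ranged from 36.54 to 127.64 normalized counts in dust lungs with a median of 61.04, against 20 to 68.36 in saline lungs with a median of 38.3. Its log2 difference was 0.82 (SE 0.22, adjusted p = 0.00476), at the bound it was 0.35 (adjusted p = 0.0907) and with median centring 0.43 (adjusted p = 0.0695). The 3 saline lungs with Irf4 at the floor were all of day 1, and in that group of 4 the factors ran from 1.93 to 4.21.

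The ratio of 2 genes within a lung does not depend on the lung's factor. It is given for Cxcl13 over Cxcr5 and Btk over Ms4a1 as a description with no test, since the pairs were chosen after the data were seen. Probes differ in efficiency, so only the difference between groups has a meaning. Cxcl13 over Cxcr5 ran from 1.00 to 15.8 in dust lungs with a median of 4.45, against 0.611 to 2.48 in saline lungs with a median of 0.914. The mean log2 ratio was 2.17 higher in dust lungs, and 11 of 13 dust lungs were above the highest saline lung. Btk over Ms4a1 ran from 0.487 to 2.13 in dust lungs with a median of 0.855, against 0.313 to 0.770 in saline lungs with a median of 0.406. That mean log2 ratio was 0.96 higher in dust lungs, and 8 of 13 dust lungs were above the highest saline lung.

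**Figure D2:**
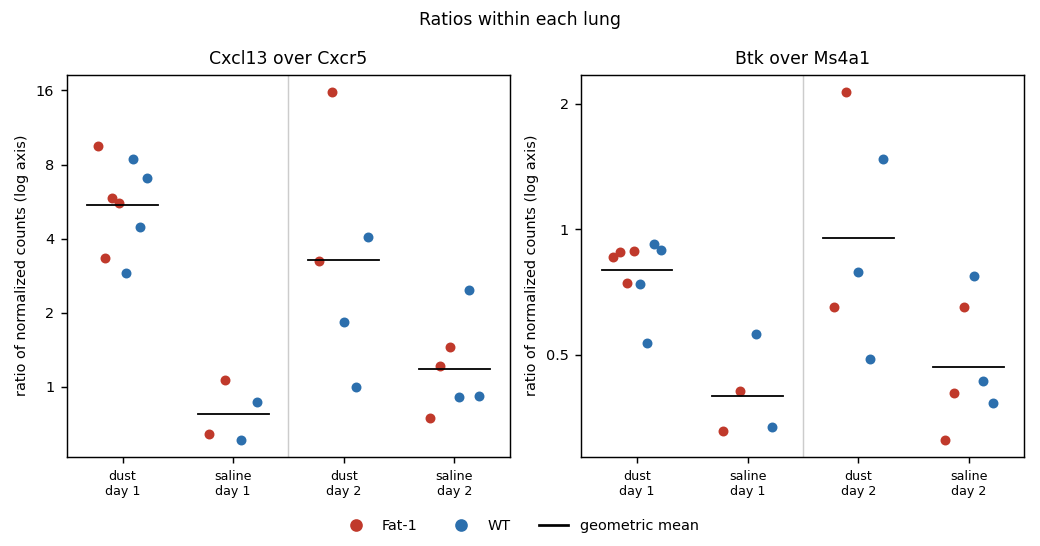
Ratio of normalized counts (log axis) of Cxcl13 over Cxcr5 and of Btk over Ms4a1 in each lung, by exposure and extraction day, with bars at geometric means. For Cxcl13 over Cxcr5 on day 1, the 8 dust lungs lie above all 4 saline lungs.

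The day of extraction in the codes divides the lungs, so the comparison was repeated within each day. The second cartridge held 10 lungs of day 1 and 2 of day 2, and the first held 2 and 9. Differences between days and between cartridges can therefore hardly be told apart. On day 1, 6 of the 8 genes rose with dust and 1, Cxcr5, fell, where 41.6% of all genes rose and 11.5% fell. As deposited, all 8 dust lungs were above all 4 saline lungs for the 6 that rose, as for 26.9% of all genes, and below them for Cxcr5, as for 5.34%. With floored values at their bound this held for 4 of the 6, Cxcl13, Ccl19, Il21r and Btk. For Fcer2a 2 of 8 dust lungs and for Irf4 1 of 8 were above the highest saline bound of 84.26. Ccl19 had a log2 difference of 2.24 (SE 0.41, adjusted p = 1.12e-04) and Cxcl13 of 2.23 (SE 0.37, adjusted p = 6.00e-05). Il21r was at 1.45 and Btk at 1.00, and Ms4a1 was at 0.01 (adjusted p = 0.978). Cxcr5 had 60.6 to 107.31 normalized counts in the dust lungs of day 1, against 116.68 to 134.82 in the saline lungs, a log2 difference of -0.57 (SE 0.18, adjusted p = 0.00980). With the negative-control background subtracted, Cxcr5 ran from 50.3 to 98.3 in these dust lungs and from 97.05 to 112.7 in these saline lungs, so that the groups then met. In dust lungs Cxcr5 averaged 68.7 ± 21.0 normalized counts on day 2 (SD, n = 5) and 85.2 ± 16.8 on day 1 (SD, n = 8). In saline lungs it averaged 75.8 ± 10.2 on day 2 (SD, n = 6) and 125.2 ± 8.2 on day 1 (SD, n = 4), a log2 difference between days of -0.69 (adjusted p = 0.216). The day 1 calls of Fcer2a (1.86) and Irf4 (1.41) ended with floored values at their bound (0.43, adjusted p = 0.0986, and 0.21, adjusted p = 0.489).

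On day 2, 2 of the 8 genes rose, Cxcl13 and Btk, where 12.8% of all genes rose. Cxcl13 had 285.99, 717.62, 100.74, 93.18 and 250.1 normalized counts in the 5 dust lungs, against 60.42 to 143.93 in the 6 saline lungs. Its log2 difference was 1.47 (SE 0.38, adjusted p = 0.0148), and that of Btk was 0.77 (SE 0.24, adjusted p = 0.0394). Both calls ended without Fat-1 male dust lung 1, which carries the saturation message. Without it Cxcl13 was at 1.06 (adjusted p = 0.135) and Btk at 0.52 (adjusted p = 0.273). Over all alternatives the Btk call ended under 14 and held under 25, and the Cxcl13 call ended under 3 and held under 36. Ccl19 was at 0.60 on day 2 (adjusted p = 0.393) and Il21r at 0.55 (adjusted p = 0.275). Fcer2a was at 0.33 (adjusted p = 0.205), Irf4 at 0.30 (adjusted p = 0.518) and Ms4a1 at -0.35 (adjusted p = 0.446). Cxcr5 was at -0.24 (adjusted p = 0.447), with 2 dust lungs above and 2 below all saline lungs of day 2.

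The mean log2 ratio of Cxcl13 over Cxcr5 was 2.82 higher in dust than in saline lungs on day 1 and 1.47 higher on day 2, or 0.91 without Fat-1 male dust lung 1. That of Btk over Ms4a1 was 1.00 higher on day 1 and 1.03 higher on day 2, or 0.74 without the same lung.

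Whether the response to dust differed between days was tested directly. For 1 of the 8 genes it was smaller on day 2, Fcer2a, where 1.69% of all genes had a smaller response. Its difference of responses was -1.53 (SE 0.23, adjusted p = 0.00164). With floored values at their bound it was -0.14 (adjusted p = 0.788). Irf4 had -1.12 (adjusted p = 0.105), Ccl19 -1.64 (adjusted p = 0.126) and Il21r -0.90 (adjusted p = 0.238). Without Fat-1 male dust lung 1 of day 2, Irf4 was at -1.24 (adjusted p = 0.0286), Ccl19 at -1.99 (adjusted p = 0.0259) and Il21r at -1.24 (adjusted p = 0.0367). Irf4 was also called without the 4 conflicting lungs (-1.40, adjusted p = 0.0470) and without Fat-1 female saline lung 1 of day 1 (-1.32, adjusted p = 0.0390), but with floored values at their bound it was at 0.12 (adjusted p = 0.859). Cxcl13 had -0.76 (adjusted p = 0.378), Ms4a1 -0.36, Btk -0.24 and Cxcr5 0.33, and none of these was called.

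Within dust lungs, 2 of the 8 genes, Fcer2a and Ms4a1, were lower on day 2 than on day 1, as were 13.2% of all genes. Ms4a1 had 121.32 to 327.84 normalized counts in the 5 dust lungs of day 2, against 240.66 to 672.69 in the 8 of day 1, a log2 difference of -0.82 (SE 0.24, adjusted p = 0.0297). The Ms4a1 call ended with median centring (-0.63, adjusted p = 0.0658) and when any of 5 WT dust lungs was left out, with an adjusted p of up to 0.0900; the 5 were female lung 2 and male lung 1 of day 1, and female lungs 1 and 2 and male lung 1 of day 2. Fcer2a was at -1.55 (adjusted p = 1.96e-06), and at -1.18 with floored values at their bound (adjusted p = 0.00205), but at -0.05 with a common floor (adjusted p = 0.384). The other 6 genes ran from -1.05 (Ccl19, adjusted p = 0.0629) to -0.25 (Irf4, adjusted p = 0.442). In saline lungs 0 of the 8 genes were called between days, where 1 of all 711 genes was. At an unadjusted p under 0.05 in limma's test there were 2 of the 8 genes and 51 of all. Summed neutrophil markers (7 of 7 on the panel) ran from 1790 to 17736 in dust lungs of day 2 and from 6428 to 41679 in dust lungs of day 1. Other cell types differed between these days too. Macrophage and monocyte markers ran from 5768 to 16277 on day 2 and from 10003 to 26421 on day 1. T cell markers ran from 113 to 267 and from 252 to 815. Endothelium markers went the other way, from 4867 to 7696 on day 2 and from 1837 to 5572 on day 1. The part of these cells in the difference between days was not tested.

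The response to dust was next compared between genotypes. In Fat-1 lungs 6 of the 8 genes rose, against 32.2% of all genes, and in WT lungs 4 rose, against 30.7%. The 4 in WT lungs were Cxcl13, Ccl19, Btk and Fcer2a. The Fcer2a call in WT lungs (1.14, adjusted p = 0.0373) ended under 22 alternatives and held under 21, and at the bound it was 0.68 (adjusted p = 0.211). The Ccl19 call in Fat-1 lungs (1.39, adjusted p = 0.0403) ended under 20 and held under 24, and grouped by characteristics it was 1.24 (adjusted p = 0.154). Il21r in WT lungs was at 0.94 (adjusted p = 0.0514) and Irf4 at 0.66 (adjusted p = 0.105). Without the 4 lungs whose labels conflict, 2 of the genes rose in Fat-1 lungs and 1 in WT lungs. Over both genotypes 6 of the 8 genes rose without these lungs, and 240 of all genes did, against 308 with every lung. No share over all genes is given for each genotype in that setting. The counts of 2 and 1 therefore do not show whether the 8 genes changed more than the panel.

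**Figure D3:**
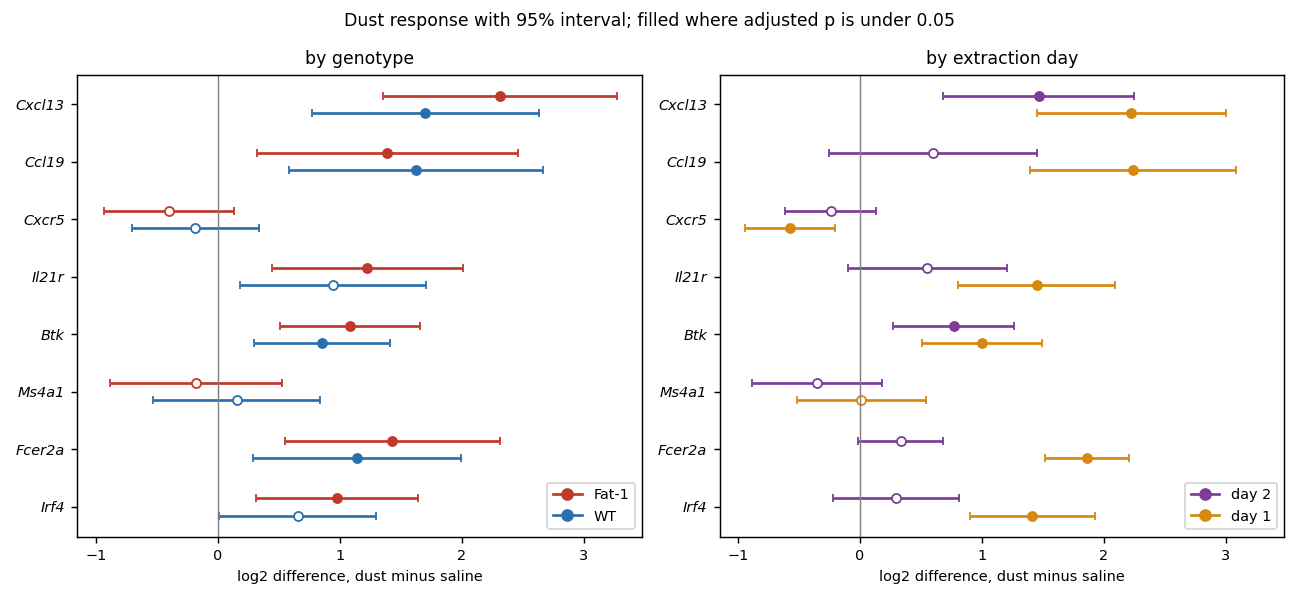
Log2 difference of dust minus saline for each gene with its 95% interval, by genotype (left) and extraction day (right), filled where the adjusted p is under 0.05. The intervals of Fat-1 and WT lungs overlap for all 8 genes.

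Cxcl13 had a median of 425.9 normalized counts in the 6 Fat-1 dust lungs, 258.5 in the 7 WT dust lungs, 101.6 in the 5 Fat-1 saline lungs and 78.1 in the 5 WT saline lungs. On day 1 Cxcl13 averaged 470 in Fat-1 and 514 in WT dust lungs (n = 4 each). On day 2 it averaged 502 in Fat-1 (n = 2) and 148 in WT dust lungs (n = 3). Its log2 dust response was 2.31 (SE 0.46) in Fat-1 lungs and 1.70 (SE 0.44) in WT lungs. The difference of the responses was 0.61 with a 95% interval of -0.72 to 1.95, and it was not called. Over the 8 genes the difference of the responses ran from -0.33 (Ms4a1) to 0.61 (Cxcl13). In dust lungs Fat-1 minus WT ran from -0.15 (Ms4a1) to 0.67 (Cxcl13), and in saline lungs from -0.20 (Il21r) to 0.42 (Ccl19). Of the 8 genes, 0 were called between genotypes in dust lungs, in saline lungs or in their response. Of all 711 genes none was called in these comparisons, with 22, 10 and 21 genes at an unadjusted p under 0.05. The intervals were wide: for Ccl19 the difference of responses ran from -1.73 to 1.26. Between the sexes 0 of the 8 genes were called, with differences from -0.59 (Cxcl13) to 0.43 (Il21r), and 17 of all genes were at an unadjusted p under 0.05 for the level and 14 for the response.

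Genes of follicle formation were taken from a list of 38, of which 23 are on the panel. Of these, 13 rose with dust and 0 fell, where 43.3% of all genes rose. Cxcl13, Ccl19 and Il21r are 3 of the 13. On day 1, 13 rose and 1 fell, where 41.6% of all genes rose. On day 2, 3 rose (Cxcl13, Ccl20 and Tnfrsf11a) and 0 fell, where 12.8% of all genes rose. Over both days with median centring, 10 were higher and 5 lower (Cxcr5, Lta, Il6ra, Cd40 and Cd40lg). Of all 711 genes, 202 were then higher and 244 lower. Lta was at the floor in 11 of 13 dust and 10 of 10 saline lungs, and Cd40lg in 8 of 13 and 9 of 10. Before centring Lta was at 0.06 and Cd40lg at 0.10, and neither was called. Ccl20, the ligand of CCR6, rose by 1.83 on the log2 scale, or 1.00 at its bound (adjusted p = 0.00324) with 8 of 10 saline lungs at the floor, and its receptor gene Ccr6 by 1.12 (adjusted p = 0.00624). Ltb, which encodes the lymphotoxin beta that helps form lymphoid tissue, had 192 ± 105 normalized counts in dust lungs (SD, n = 13) and 85.1 ± 26.4 in saline lungs (SD, n = 10), a log2 difference of 1.10 (adjusted p = 0.00868). Icos, a co-stimulatory receptor of T cells, rose by 1.76, or 1.21 at its bound, and Tnfrsf11a, the receptor of RANKL, by 0.97 (adjusted p = 7.90e-05). Il6 rose by 1.19, but at its bound it was 0.52 (adjusted p = 0.117). The others that rose were Cxcr4 (1.10), Vcam1 (0.44), Cxcl12 (0.42) and Bcl6 (0.32). With median centring Cxcr4 was at 0.71, Vcam1 at 0.05, Cxcl12 at 0.03 and Bcl6 at -0.07. On day 2 Ltb was at 0.11 (adjusted p = 0.915) and Ccr6 at 0.25 (adjusted p = 0.743). Over both days 2 genes of the CCR7 axis were not called. Ccr7, the receptor of CCL19, was at 0.15 (adjusted p = 0.573), and Ccl21a, the other ligand of CCR7, at 0.16 (adjusted p = 0.402).

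Of a list of 32 B cell signalling genes, 14 are on the panel and 9 rose with dust, where 43.3% of all genes rose. Of the 9, 3 are Btk, Fcer2a and Irf4, and at the bound 7 were higher, with Btk alone of these 3. With median centring 7 were higher too, where 202 of all 711 genes were. On day 1, 10 of the 14 rose, where 41.6% of all genes rose. On day 2, 3 rose (Btk, Syk and Fcgr2b), where 12.8% of all genes rose. Over both days Syk, a kinase upstream of BTK, rose by 1.47, Vav1, an exchange factor, by 2.11, and Fcgr2b, an inhibitory antibody receptor, by 2.20. These genes are also active in myeloid cells. Summed macrophage and monocyte markers, 10 of 11 on the panel and all 10 higher with dust, ran from 5768 to 26421 in dust lungs and from 3619 to 5588 in saline lungs, without overlap. Of the T cell markers 3 of 9 are on the panel (Cd28, Icos and Ctla4), and their sum ran from 113 to 815 in dust lungs and from 60 to 170 in saline lungs. Of 10 saline lungs, Ctla4 was at the floor in 7, Icos in 4 and Cd28 in 2, so the lower saline sums rest on the floor. Ctla4 was also at the floor in 2 of 13 dust lungs. The part of these cells in the rise of Cxcl13, Btk, Il21r and Irf4 was not tested.

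The genes most like Cxcl13, Ccl19 and Ms4a1 were taken as the 5 with the highest Pearson correlation over 23 lungs, after each group's mean was subtracted, among 578 genes. The points share lungs and scaling factors, the group means leave the extraction day in, and the values are a description. For Cxcl13 they were Anxa1 (0.837), Cstb, Itgal, S100a9 and Cd80. For Ccl19 they were Nfkbia (0.963), Batf (0.903), Il1b, Malt1 and Ccl3. For Ms4a1 they were H2-Ob (0.896), H2-DMb2 (0.894), Gzma, Lst1 and Cd247. With the means of exposure and day also removed, these were 0.816 for Cxcl13 and Anxa1, 0.947 for Ccl19 and Nfkbia, 0.852 for Ms4a1 and H2-Ob, and 0.424 for Ms4a1 and Cd247. Among the 8 genes, the pairs ran from -0.344 (Cxcr5 and Irf4) to 0.708 (Cxcl13 and Btk), or 0.054 and 0.597 with the day removed. Ms4a1 and Btk correlated at 0.702, or 0.54 with the day removed, and Ms4a1 and Fcer2a at 0.694, or 0.287. Ms4a1 and Cxcr5 were at 0.676, or 0.431, and Cxcl13 and Ccl19 at 0.629, or 0.562. Cxcl13 and its receptor gene Cxcr5 were at 0.212, or -0.14.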

How the data were processed

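RNA of the left lung was measured with an nCounter panel. The deposited values are a signal: probe counts multiplied by a factor for each lung, with a floor of 20, per the file headers and the values. Dividing by the factor gave whole counts for 100.0% of values over the floor, within 0.1 of a count. No source used here names the normalization software or the genes behind the factor. Counts under 20 are hidden, and in the 5 lungs with a factor under 1 so are counts that scaled to under 20. No count model was fitted, and counting error alone is 22.4% at 20 counts.

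Tests used limma 3.58.1 under R 4.3.3 on log2(value + 1), two-sided, with Benjamini-Hochberg adjustment over the 711 genes above the floor in at least 1 lung and a threshold of 0.05. One model held the 8 groups of genotype, sex and exposure, and another the means of exposure and day with genotype and sex as covariates. Ratios and tables were computed in Python 3.11.15 (numpy 2.4.6, pandas 2.3.3, matplotlib 3.10.9). Promoters were matched by symbol to RefSeq on GRCm38.p6.

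Groups came from the extract code, since the labels of 4 lungs conflict. Each lung is a separate mouse. The genes, lists and tests were chosen with earlier results of these data known. All 8 genes were tested in every comparison and are named or lie within a printed range. The floored values at their bound, the background subtraction, the single cartridges, the removal of lungs with a saturation message, the correlations with the day removed and the ratios were chosen after seeing the data. Lungs of the same day and number correlated at 0.052 on average and those of another number at 0.064, so the numbers were not taken as pairs.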

Additional observations from a re-analysis of the deposited data

Results flagged for a closer look

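Each of the 8 genes was examined in 4 groups of genotype and exposure (5 to 7 lungs each) for a value far from the others, and 2 were found in these 32 cases, where chance gives about 1 in 20. Cxcr5 was at 45.47 normalized counts in Fat-1 male dust lung 1 of day 2, the lowest of 6 Fat-1 dust lungs, with the next at 72.3. That lung carries a saturation message. Irf4 was at the floor of 20 in Fat-1 male saline lung 1 of day 1, with the next of 5 Fat-1 saline lungs at 36.57. That lung has the highest factor, 4.21, which puts the bound of its floored value at 84.26.

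The response of Fcer2a to dust differed between the extraction days by -1.53 (day 2 minus day 1) in the test of the difference itself. It was -0.14 with floored values at their bound and -0.02 with the negative-control background subtracted.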

How the results depend on the processing

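Of the 8 genes, the number higher with dust was 6 when each lung was left out in turn, and 0 in the lungs of day 2 alone or of the first cartridge alone. Cxcr5 made 1 lower gene with median centring, with the extraction day block and with the cartridge block, also in Fat-1 lungs alone. Median centring gave 202 genes higher and 244 lower over the panel and moved the median of all genes to -0.13. Housekeeping scaling gave 118 lower. Without the 4 conflicting lungs 37 were lower, and with the replicate block also 37. The lungs of day 2 alone gave 1 higher and 0 lower, the first cartridge 27 and 1, and the second 146 and 18. Leaving out each lung gave 278 to 320 higher and 58 to 82 lower.

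In Fat-1 lungs the genes higher with dust numbered 2 with a common floor and without the conflicting lungs, 3 with the replicate block and without the lungs with a saturation message, 1 on day 2 alone, 0 on either cartridge alone, and 3 to 6 when a lung was left out. In WT lungs they numbered 2 with median centring, a common floor and the replicate block, 1 without the conflicting lungs and on the second cartridge, 0 on day 2 or the first cartridge alone, and 2 to 5 when a lung was left out. In the lungs of day 2 alone, Fcer2a was 0.70 higher on the log2 scale in Fat-1 than in WT dust lungs. All 3 of these WT lungs were at the floor, with bounds of 36.54, 21.90 and 37.33. The 2 Fat-1 lungs were at 27.9 and 39.54, the second with a saturation message.

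On day 2 the genes higher with dust numbered 1 with median centring, housekeeping scaling, a common floor and the replicate block, 0 without the conflicting or saturated lungs, and 0 to 2 when a lung was left out. The genes with a smaller response on day 2 numbered 0 with the filter of 12 lungs, a common floor, the bound and background subtraction, 2 without the conflicting lungs, 4 without the saturated lungs, and 1 to 4 when a lung was left out. With a common floor 1 gene, Cxcr5, had a higher value in that comparison. In dust lungs the genes lower on day 2 numbered 4 with a pseudocount of 20 and background subtraction, 1 with median centring, 6 with the cartridge block and without the saturated lungs, 5 at the bound, and 1 to 6 when a lung was left out. In saline lungs they numbered 1 with a common floor, and 2 (Cxcr5 and Fcer2a) at the bound and with background subtraction. Fcer2a was at the floor in 10 of 10 saline lungs. Its saline values in these settings are therefore set by the lungs' factors and give no measured level. The ratio of Cxcl13 over Cxcr5 differed by 2.02 to 2.41 over 27 alternatives and that of Btk over Ms4a1 by 0.85 to 1.10. When a lung of day 2 was left out these ran from 0.91 to 1.90 and from 0.74 to 1.27. The cause of these changes was not tested. Values at the floor and wide intervals between genotypes limit what these lungs show.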
